A study of Mus musculus with 9 samples.

Results

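The genes that carry out homologous recombination and the Fanconi anemia pathway were followed in mouse mammary tumors treated with Talazoparib (TLZ), an inhibitor of poly(ADP-ribose) polymerase (PARP). The list held 41 genes given by symbol. All 41 were found among the 35275 genes of the count table through their Ensembl identifiers, and all 41 passed the filter on low counts that left 15821 genes to test. The 9 tumors came from Brca1Co/Co;MMTV-Cre;p53+/- mice and were collected after 5 doses. The saline group held tumors A3673, A3685 and A3688. The i.v. TLZ group (B3638, B3684 and B3700) was given free drug i.v. at 0.33 mg/kg with 3 doses in each week. The NanoTLZ group (C3519, C3669 and C3698) was given the drug in a nanoparticle, also i.v., at the same dose and schedule. No tumor given empty nanoparticles was among the 9, so drug and carrier cannot be told apart in the NanoTLZ group. All 3 groups carried the conditional Brca1 alleles, the Cre transgene and the heterozygous loss of p53, so no group with intact Brca1 was compared. The MMTV promoter drives Cre mainly in mammary epithelium, so the stroma of these tumors need not share the deletion. The labels do not say whether tumors of a group shared a litter or a cohort, so the p-values measure the spread between these tumors.

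Homologous recombination repairs a broken chromosome by copying the intact sister chromatid, and so it acts in the S and G2 phases of the cell cycle. The break is first resected to single-stranded DNA, BRCA1, PALB2 and BRCA2 then load the recombinase, and translocases, helicases and nucleases carry the exchange to its end. The Fanconi anemia pathway handles crosslinks and stalled forks: a core complex with the ligase FANCL and the conjugating enzyme UBE2T ubiquitinates the FANCD2 and FANCI pair, which calls in nucleases and the recombination factors. PARP inhibitors trap PARP on DNA and leave damage at forks that needs this machinery, which is why tumors without BRCA1 or BRCA2 function are sensitive to them.

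Transcription of many of these genes is known to follow the cell cycle through E2F sites, CHR elements and CCAAT boxes, so the 250 bases before each transcription start were searched on both strands for 3 sets of words. Promoter sequences came from RefSeq on GRCm38.p6, and 33 of the 41 members matched an entry. Entries were not matched for Rad51d, Rad54b, Rad50, Xrcc2, Nbn, Rbbp8, Fancd2 and Exo1. The E2F words TTTCCCGC and TTTGGCGC occurred in 4 of 33 members (12.1%), against 1.51% of the 27025 genes in the promoter table. CCAAT occurred in 20 of 33 (60.6%) against 37.5%, and the CHR words TTTGAA and TTCGAA occurred in 3 of 33 (9.09%) against 19.6%. Matches of different words were allowed to overlap, and a match describes letters in the window, not a bound site. The 4 members with an E2F word are shown with 90 bases around it, in the sense of the gene, with the word or its reverse complement in capitals; the stretches are chr1:71103133-71103222 (minus strand) for Bard1, chr5:150522412-150522501 (plus) for Brca2, chr5:110839790-110839879 (plus) for Chek2 and chr4:43010305-43010394 (minus) for Fancg.
Bard1: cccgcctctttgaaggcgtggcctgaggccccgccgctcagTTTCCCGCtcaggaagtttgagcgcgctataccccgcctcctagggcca
Brca2: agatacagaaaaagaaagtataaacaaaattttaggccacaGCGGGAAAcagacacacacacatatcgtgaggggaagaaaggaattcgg
Chek2: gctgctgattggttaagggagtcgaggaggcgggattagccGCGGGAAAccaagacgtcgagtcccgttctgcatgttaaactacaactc
Fancg: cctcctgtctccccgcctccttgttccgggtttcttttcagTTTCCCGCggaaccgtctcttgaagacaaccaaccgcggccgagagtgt

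A pair of members with CCAAT boxes is shown for contrast, because Brca1 held a single box and Brip1 held 3, all read as ATTGG on the gene's own strand. The stretches are chr11:101551995-101552084 (minus strand) for Brca1 and chr11:86201213-86201302 (minus) for Brip1, with the boxes in capitals.
Brca1: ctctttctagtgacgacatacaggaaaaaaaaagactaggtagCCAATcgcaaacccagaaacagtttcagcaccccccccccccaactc
Brip1: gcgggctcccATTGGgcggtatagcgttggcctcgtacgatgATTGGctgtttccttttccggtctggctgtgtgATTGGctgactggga

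The RNA counts were deep and even, with 17538380 to 21194980 counts per tumor. Tumor A3688 stood apart from the rest of the series: its Spearman correlation with each other tumor lay between 0.843 and 0.875, while all pairs of the other tumors lay between 0.900 and 0.970. Its basal keratin Krt5 was at 1843 CPM against at most 72.8 CPM in the other 8 tumors. The epithelial markers Epcam and Krt8 were present in all 9 tumors, at 604 CPM or more and 738 CPM or more. For members with values in every tumor, differences from saline that moved by over 1.5 times without A3688 are therefore given both ways. The same was done for the other pathway and proliferation genes that are named. For the remaining members a single value does not mean that it was stable without A3688. Levels are CPM, counts scaled to a common library size after TMM normalization, and values in the text follow the order A3673, A3685, A3688 for saline, B3638, B3684, B3700 for i.v. TLZ and C3519, C3669, C3698 for NanoTLZ.

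The members were, as a group, at lower counts in treated tumors than in saline tumors, and no single member passed the test after adjustment over all genes. In bulk tumors, fewer cells of a type and less RNA per cell cannot be told apart. After i.v. TLZ, 35 of the 41 log2 fold changes were below zero, with a median of −0.97 against −0.03 over all genes tested. For NanoTLZ, 33 of 41 were below zero and the median was −0.83, against −0.09 over all genes. With edgeR's quasi-likelihood test and Benjamini-Hochberg adjustment, 0 of 41 members had an adjusted p under 0.05 in either comparison, beside 0% of all genes for i.v. TLZ and 0.00632% for NanoTLZ, and the smallest adjusted p among the members was 0.417 and 0.552. At an unadjusted p under 0.05, 19 members were lower after i.v. TLZ and 0 were higher, where 5.47% of all genes were lower and 4.91% higher. After NanoTLZ, 11 members were lower and 0 higher, against 5.49% and 3.51% of all genes. With the treated groups averaged and set against saline (both treatments together), 20 members were lower and 0 higher at that level, against 8.29% and 4.80% of all genes, and the median was −0.87. None of the 41 was called after adjustment there either (0.0190% of all genes), and the smallest adjusted p was 0.271. DESeq2 on all 9 tumors gave adjusted p-values under 0.05 for Fancd2 and Brip1 after i.v. TLZ and for Fancd2 and Fanci for both treatments together, where it called 1.10% and 1.56% of the genes to which it gave an adjusted p.

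**Figure D1:**
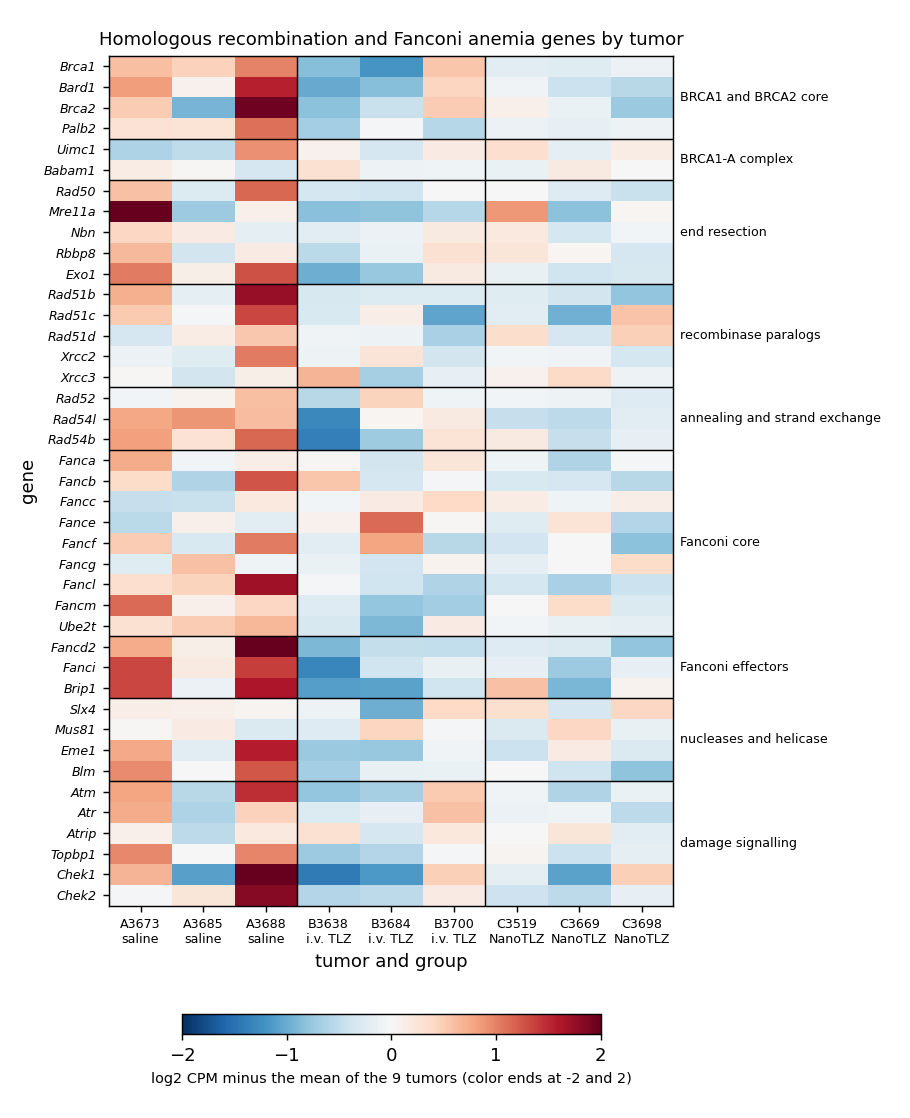
Heat map of the 41 genes (rows, ordered by role) in the 9 tumors (columns, by group); color gives log2 CPM minus the gene's mean over the 9 tumors. Saline tumor A3688 was the highest saline tumor for 29 of 41 genes, and A3685 the lowest for 27.

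Much of this difference rested on the saline tumors, which were spread out. Among them, A3688 was the highest for 29 members, A3673 for 8 and A3685 for 4, whereas over all genes A3688 was the highest for 39.0%. A3685 was the lowest saline tumor for 27 members. Without A3688 the number of members lower at an unadjusted p under 0.05 was 8 after i.v. TLZ (4.19% of all genes), 2 after NanoTLZ (3.26%) and 9 for both treatments together (4.87%), and the medians were −0.43, −0.42 and −0.43. Uimc1 was then higher at that level after NanoTLZ and for both together, where 3.39% and 4.40% of all genes were higher. Without A3673 the counts of lower members were 11, 9 and 15 (5.83%, 6.50% and 8.51% of all genes), and without A3685 they were 19, 18 and 23 (8.56%, 8.66% and 11.3%). The number of fold changes below zero after leaving out A3688 was 34, 33 and 34 of 41. The median coefficient of variation of the members was 38.2% among saline tumors, 29.8% among i.v. TLZ tumors and 19.2% among NanoTLZ tumors, beside 40.97%, 32.6% and 21.2% of all genes tested. Groups that did not overlap were counted apart from the test. All treated tumors of the group lay below all saline tumors for 12 members after i.v. TLZ (5.20% of all genes) and for 14 after NanoTLZ (8.13%), and for 0 members did all treated tumors lie above saline (949 of 15821 genes for i.v. TLZ, 7.83% of all genes for NanoTLZ and 2.81% for both). For 9 members every treated tumor of both groups lay below every saline tumor (2.67% of all genes): Palb2, Rad51b, Rad54l, Rad54b, Fancl, Ube2t, Fancd2, Fanci and Blm.

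**Figure D2:**
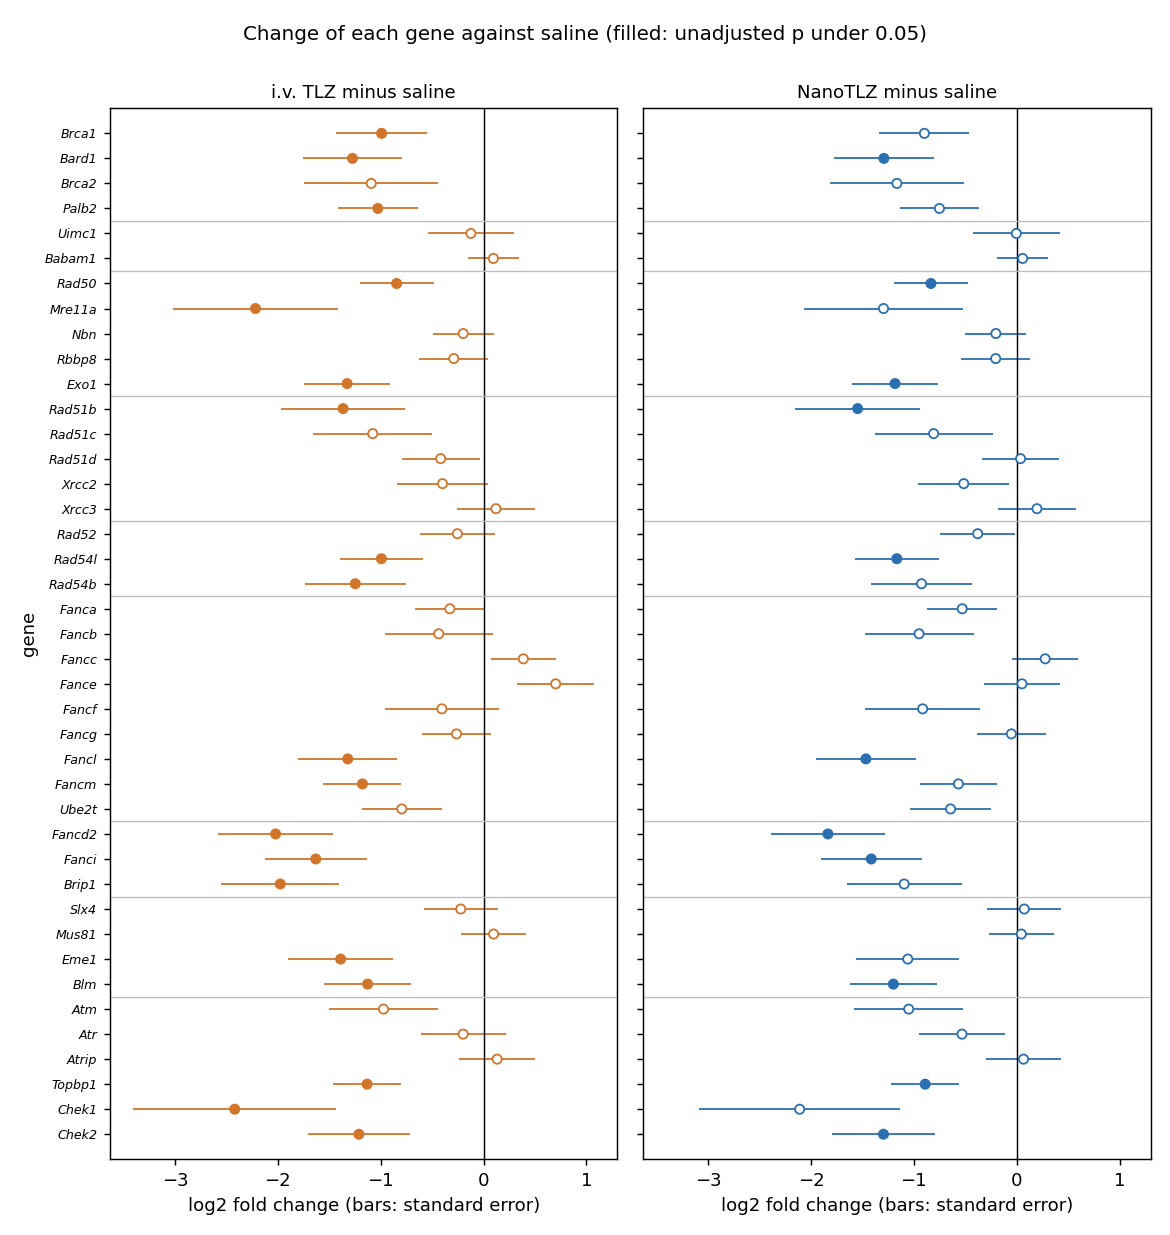
Log2 fold change of each of the 41 genes against saline (horizontal axis, bars are standard errors) after i.v. TLZ (left) and NanoTLZ (right); filled points have an unadjusted p under 0.05. 19 points are filled on the left and 11 on the right, all of them left of zero, and no gene had an adjusted p under 0.05.

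The genes that load the recombinase, Brca1, Bard1, Brca2 and Palb2, were all lower on average after treatment, with 3 of 4 at an unadjusted p under 0.05 for both treatments together and a median log2 difference of −1.04. Beside this and the other counts by role below, 8.29% of all genes were lower at that level for both treatments together. Brca1 (chr11:101488764-101551955, minus strand) encodes a ubiquitin ligase that favors resection and brings PALB2 to the break. Its level was 32.6, 29.6 and 42.6 CPM in saline tumors, 11.8, 9.44 and 31.5 CPM after i.v. TLZ and 18.4, 18.2 and 19.7 CPM after NanoTLZ. The NanoTLZ tumors lay close together and below all saline tumors, while B3700 of the i.v. group sat among the saline values. The log2 difference was −0.99 ± 0.44 (SE, adjusted p = 0.475) for i.v. TLZ and −0.90 ± 0.44 (adjusted p = 0.568) for NanoTLZ. Cre removes a large internal exon of Brca1 in this model and the counts cover the whole gene, so they do not check the deletion. The partner ligase subunit Bard1 (chr1:71027498-71103146) was at 34.5, 20.4 and 56.4 CPM in saline tumors, 9.54, 10.6 and 25.9 CPM after i.v. TLZ and 18.3, 14.3 and 13.0 CPM after NanoTLZ. Again the i.v. group overlapped saline through B3700, and the NanoTLZ group did not overlap. The differences were −1.27 ± 0.48 (adjusted p = 0.443) and −1.29 ± 0.48 (adjusted p = 0.552). Without A3688 both were −0.82.

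Brca2 (chr5:150522630-150570329), which delivers the recombinase to single-stranded DNA, was at 21.0, 7.71 and 57.1 CPM in saline tumors, so the saline tumors were themselves far apart. It was at 8.38, 10.9 and 21.1 CPM after i.v. TLZ and 15.97, 13.5 and 8.84 CPM after NanoTLZ. The saline range enclosed both treated ranges, and the differences of −1.09 ± 0.65 (adjusted p = 0.565) and −1.16 ± 0.65 (adjusted p = 0.598) were not at an unadjusted p under 0.05. Without A3688 they were −0.08 and −0.13. Palb2 (chr7:122107262-122132985), the bridge between BRCA1 and BRCA2, was at 9.95, 9.86 and 17.6 CPM in saline tumors, 5.04, 7.92 and 5.41 CPM after i.v. TLZ and 7.50, 7.20 and 7.55 CPM after NanoTLZ. Every treated tumor was below every saline tumor. The differences were −1.03 ± 0.39 (adjusted p = 0.443) and −0.75 ± 0.39 (adjusted p = 0.574). Without A3688 the Palb2 differences were −0.68 and −0.39. By contrast, Uimc1 and Babam1, which belong to the BRCA1-A complex that restrains resection, had log2 differences between −0.12 and 0.10 with all tumors. The Uimc1 value depended on A3688, whose level was 51.8 CPM, against 17.9 CPM in A3673 and 19.3 CPM in A3685. With single tumors left out, the Uimc1 difference for both treatments together reached 0.63 at most and −0.30 at least. That of Babam1 stayed within −0.03 and 0.20. Babam1 was the most abundant member per exon length in all 3 groups, at 23.0 ± 3.79, 24.5 ± 4.13 and 23.9 ± 2.55 CPM per kilobase (SD, n = 3).

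**Figure D3:**
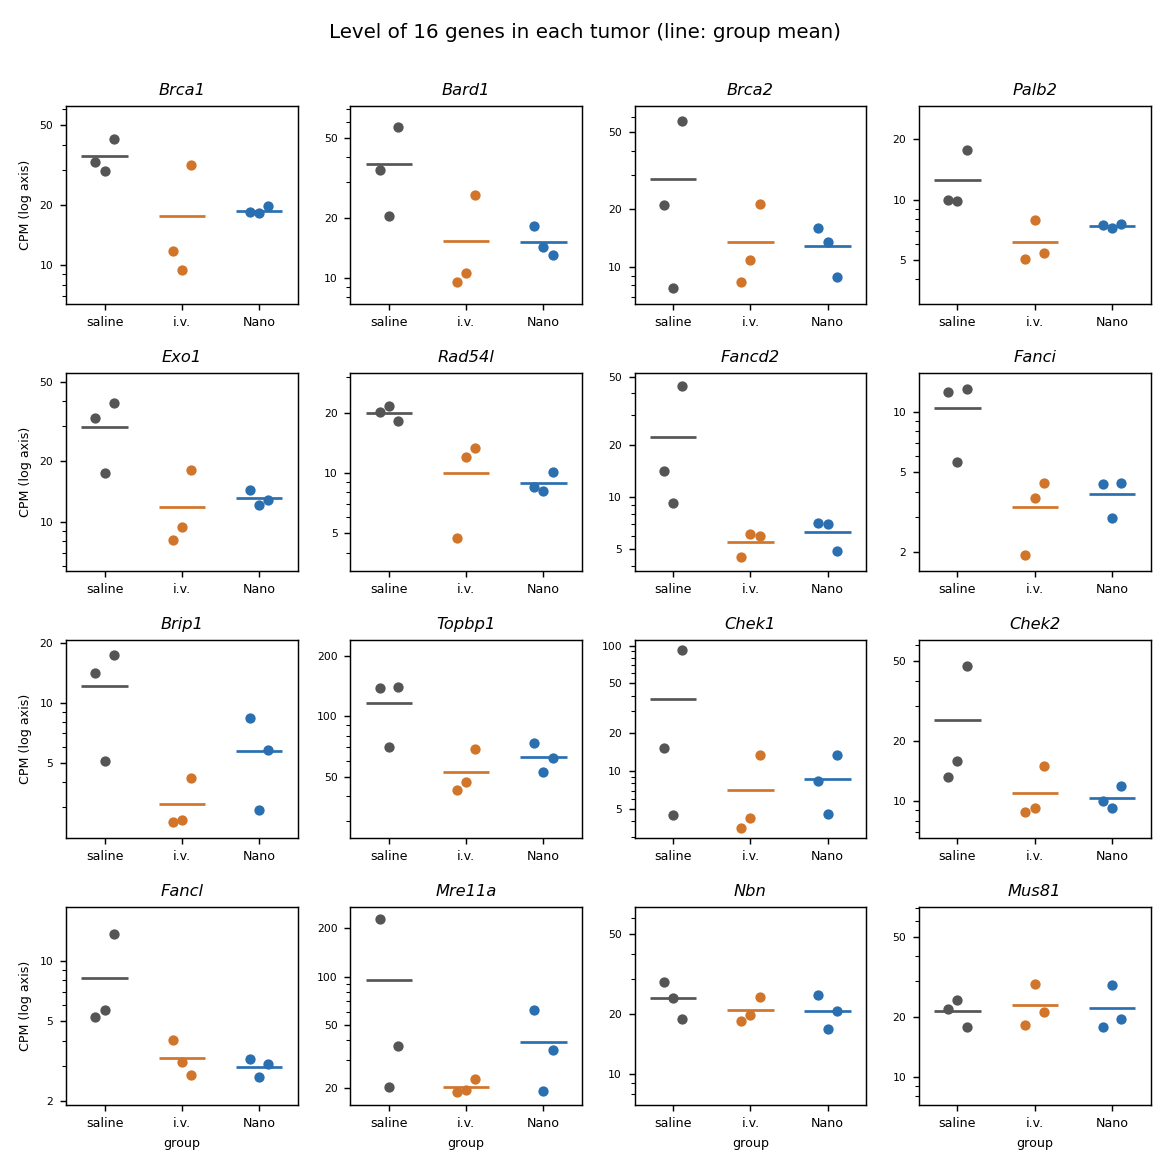
CPM of 16 of the 41 genes in each tumor (points, log axis) by group, with the group mean as a line; Nbn and Mus81 were chosen after their values were seen, as genes whose groups overlap. For Palb2, Rad54l, Fancd2, Fanci and Fancl every treated tumor lies below every saline tumor, and for Brca2, Mre11a and Chek1 a single saline tumor lies far above the rest.

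End resection is started by the MRE11, RAD50 and NBN complex with RBBP8 and extended by EXO1. Of these 5 genes, Rad50, Mre11a and Exo1 were at an unadjusted p under 0.05 for both treatments together, and Nbn and Rbbp8 were not (−0.20 ± 0.26, adjusted p = 0.760, and −0.25 ± 0.29, adjusted p = 0.735). Exo1 (chr1:175880581-175913489), a 5′ exonuclease, was at 32.9, 17.4 and 38.9 CPM in saline tumors, 8.09, 9.39 and 18.1 CPM after i.v. TLZ and 14.4, 12.1 and 12.8 CPM after NanoTLZ. All 3 NanoTLZ tumors were below the saline tumors, and B3700 of the i.v. group was just above A3685. Exo1 differed by −1.33 ± 0.42 (adjusted p = 0.425) and −1.18 ± 0.41 (adjusted p = 0.552). Rad50 (chr11:53649519-53707319), the ATPase of the complex, was at 46.7, 25.6 and 68.9 CPM in saline tumors, 24.3, 23.4 and 30.9 CPM after i.v. TLZ and 30.7, 25.9 and 22.6 CPM after NanoTLZ. The lowest saline tumor, A3685, lay within both treated ranges. The Rad50 differences were −0.85 ± 0.36 (adjusted p = 0.460) and −0.83 ± 0.36 (adjusted p = 0.552). Leaving out A3688 gave −0.45 and −0.42.

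Mre11a (chr9:14784654-14837123), the nuclease of the complex, followed a pattern of its own. It was at 228, 20.5 and 36.6 CPM in saline tumors, 18.9, 19.5 and 22.9 CPM after i.v. TLZ and 62.1, 19.2 and 34.8 CPM after NanoTLZ. Tumor A3673 alone carried the saline mean of 95.1 ± 116 CPM (SD, n = 3). The differences were −2.22 ± 0.80 (adjusted p = 0.443) for i.v. TLZ and −1.29 ± 0.78 (adjusted p = 0.617) for NanoTLZ, and without A3673 they were −0.47 and 0.47. Without A3673 the difference for both treatments together was 0.00. Since A3673 was singled out after its value was seen, the genes within 2 Mb of Mre11a were examined in the same way. Of 22 tested neighbors, 3 were over 3-fold higher in A3673 than the median of the other 8 tumors, against 2.81% of all tested genes. The median ratio of the neighbors was 1.61, against 0.981 over all tested genes. In C3519, Mre11a was 3.03-fold the median of the 7 tumors other than A3673 and C3519. Its neighbors there ran from 0.389 (Vstm5) to 3.36 (Amotl1) on that ratio. Most of them were above 2, and the rest ran up to 1.91 (Ankrd49). Amotl1 and 4931406C07Rik (3.25) were over 3-fold, against 2.07% of all tested genes.

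**Figure D4:**
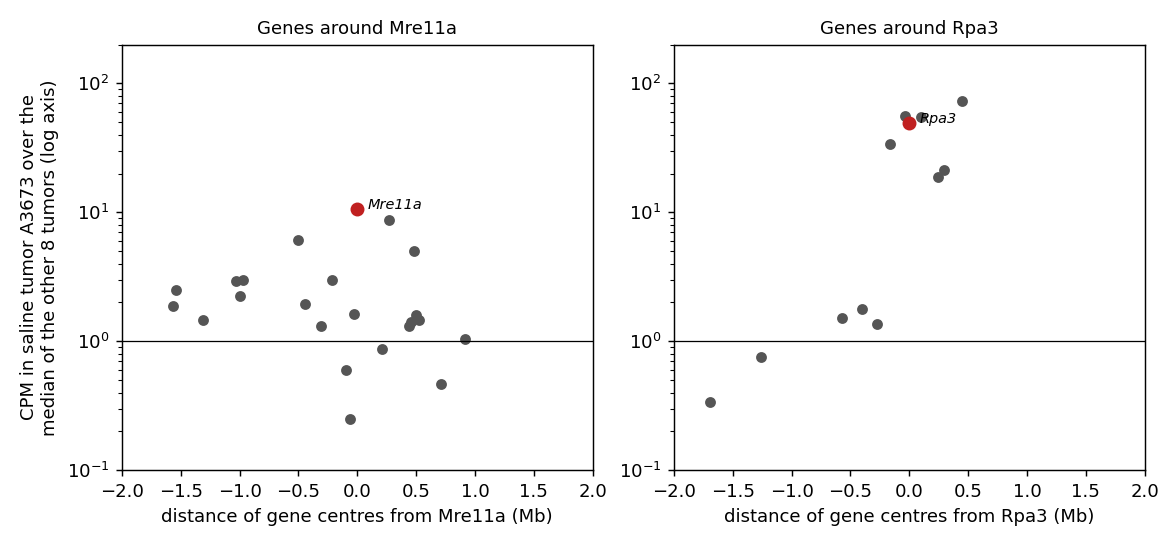
CPM in saline tumor A3673 divided by the median of the other 8 tumors (vertical log axis) for tested genes within 2 Mb of Mre11a (left) and of Rpa3 (right), by distance between gene centers in Mb (horizontal axis). 3 of 22 neighbors of Mre11a and 6 of 12 neighbors of Rpa3 lie above a ratio of 3.

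The recombinase paralogs, which stabilize the recombinase filament, had smaller differences, and 1 of 5, Rad51b, was at an unadjusted p under 0.05. Rad51b (chr12:79297282-79814690) had the lowest level per exon length of all members, at 0.480 ± 0.327 CPM per kilobase in saline tumors (SD, n = 3). It had 9 to 69 raw counts per tumor, and its level was 1.49, 0.762 and 3.16 CPM in saline tumors, 0.678, 0.710 and 0.703 CPM after i.v. TLZ and 0.721, 0.654 and 0.465 CPM after NanoTLZ. The groups did not overlap, although A3685 was close to the treated tumors. The differences were −1.37 ± 0.60 (adjusted p = 0.475) and −1.55 ± 0.60 (adjusted p = 0.552). Leaving out A3688 gave −0.67 and −0.83 for Rad51b. Rad51c had the next largest difference, −0.94 ± 0.48 (adjusted p = 0.425) for both treatments together, and Rad51d, Xrcc2 and Xrcc3 lay between −0.46 and 0.16. Without A3688 the Rad51c difference was −0.46, and leaving out single tumors moved Xrcc2 between −0.68 and 0.10. Among the genes for annealing and strand exchange, the translocases Rad54l and Rad54b were lower at an unadjusted p under 0.05 for both treatments together. The annealing factor Rad52 was not (−0.32 ± 0.31, adjusted p = 0.679, or −0.06 without A3688). Rad54l (chr4:116094264-116123690) was at 20.2, 21.7 and 18.1 CPM in saline tumors, 4.75, 12.01 and 13.4 CPM after i.v. TLZ and 8.51, 8.13 and 10.1 CPM after NanoTLZ. Its saline values were tight (20.0 ± 1.81 CPM, SD, n = 3) and no treated tumor reached them. Rad54l differed by −0.99 ± 0.41 (adjusted p = 0.452) and −1.17 ± 0.41 (adjusted p = 0.552), and it remained under 0.05 unadjusted in all 3 comparisons with saline when A3688 was left out. Rad54b (chr4:11558922-11615805) was at 12.3, 8.48 and 15.4 CPM in saline tumors, 2.61, 4.203 and 8.43 CPM after i.v. TLZ and 7.89, 5.02 and 6.15 CPM after NanoTLZ. B3700 nearly touched the lowest saline tumor. The differences were −1.25 ± 0.49 (adjusted p = 0.449) and −0.93 ± 0.49 (adjusted p = 0.582).

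In the Fanconi anemia pathway the genes for the ubiquitinated pair and for the helicase BRIP1 had larger differences than most genes of the core complex. Fancd2, Fanci and Brip1 (3 of 3) were each lower at an unadjusted p under 0.05 for both treatments together, with a median log2 difference of −1.54. In the core complex 2 of 9 were lower at that level, with a median of −0.66, and over all genes 8.29% were. Fancd2 (chr6:113531682-113597017) was at 14.2, 9.24 and 44.0 CPM in saline tumors, 4.50, 6.11 and 6.001 CPM after i.v. TLZ and 7.07, 6.98 and 4.86 CPM after NanoTLZ. Every treated tumor was below every saline tumor. The difference was −2.02 ± 0.56 (adjusted p = 0.417) for i.v. TLZ and −1.84 ± 0.56 (adjusted p = 0.552) for NanoTLZ, which is 4.06-fold and 3.57-fold lower. Without A3688 these differences were −1.07 and −0.86.

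Fanci (chr7:79391929-79450264), the partner of FANCD2, was at 12.6, 5.62 and 13.0 CPM in saline tumors, 1.94, 3.71 and 4.43 CPM after i.v. TLZ and 4.38, 2.94 and 4.39 CPM after NanoTLZ. The groups did not overlap. Fanci differed by −1.63 ± 0.50 (adjusted p = 0.420) and −1.41 ± 0.49 (adjusted p = 0.552). It shares 921 exon bases with Polg on the opposite strand, which has more counts, so its level is uncertain where strand was not used in counting. Brip1 (chr11:86058138-86201193), the helicase that binds BRCA1, was at 14.1, 5.10 and 17.2 CPM in saline tumors, 2.52, 2.57 and 4.16 CPM after i.v. TLZ and 8.37, 2.89 and 5.79 CPM after NanoTLZ. Only the i.v. TLZ group lay wholly below saline. Brip1 differed by −1.98 ± 0.58 (adjusted p = 0.417) and −1.09 ± 0.56 (adjusted p = 0.573). Without A3688 the NanoTLZ difference of Brip1 was −0.72.

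Within the core complex, the catalytic subunit Fancl (chr11:26386135-26471876) was at 5.26, 5.67 and 13.6 CPM in saline tumors, 4.02, 3.11 and 2.70 CPM after i.v. TLZ and 3.22, 2.62 and 3.05 CPM after NanoTLZ. Both treated groups were below saline. The Fancl differences were −1.32 ± 0.48 (adjusted p = 0.443) and −1.47 ± 0.48 (adjusted p = 0.552). A3688 carried much of the saline mean, and without it they were −0.72 and −0.85. The translocase Fancm (chr12:65075603-65132058) was at 27.0, 13.2 and 16.6 CPM in saline tumors, 10.3, 7.15 and 7.62 CPM after i.v. TLZ and 12.4, 15.9 and 10.1 CPM after NanoTLZ. Its i.v. TLZ tumors were below saline and its NanoTLZ tumors overlapped them, with differences of −1.18 ± 0.38 (adjusted p = 0.431) and −0.57 ± 0.38 (adjusted p = 0.636). Without A3673 the NanoTLZ difference of Fancm was −0.19. Ube2t did not overlap in either comparison and had a difference of −0.72 ± 0.33 (adjusted p = 0.391) for both treatments together. The scaffold and accessory subunits Fanca, Fancb, Fancf and Fancg had differences of −0.69 to −0.16, and Fancc and Fance of 0.33 and 0.38, none with an unadjusted p under 0.05. For both treatments together, those of Fancb and Fancf were −0.09 and −0.26 without A3688.

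Of the nucleases and helicase that take joint molecules apart, Eme1 and Blm were lower at an unadjusted p under 0.05 for both treatments together and Slx4 and Mus81 were not. Eme1 (chr11:94644996-94653964), the partner of the MUS81 nuclease, was at 10.3, 5.24 and 18.3 CPM in saline tumors, 3.58, 3.55 and 5.78 CPM after i.v. TLZ and 4.47, 6.82 and 4.96 CPM after NanoTLZ. A3685 fell within both treated ranges. The Eme1 differences were −1.39 ± 0.51 (adjusted p = 0.443) and −1.06 ± 0.50 (adjusted p = 0.563). With A3688 left out they were −0.84 and −0.49. Mus81 itself was at 17.7 to 24.1 CPM in saline tumors and at 17.7 to 29.0 CPM in treated tumors, with a difference of 0.07 ± 0.28 (95% interval −0.54 to 0.69). Blm (chr7:80454733-80535119), the helicase mutated in Bloom syndrome, was at 18.2, 9.33 and 22.5 CPM in saline tumors, 5.86, 8.52 and 8.54 CPM after i.v. TLZ and 9.33, 7.09 and 5.38 CPM after NanoTLZ. Every treated tumor was below every saline tumor, C3519 by a margin too small to show in these digits. Blm differed by −1.13 ± 0.42 (adjusted p = 0.443) and −1.20 ± 0.42 (adjusted p = 0.552).

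The damage signalling genes split in the same way, with Atm, Topbp1, Chek1 and Chek2 at an unadjusted p under 0.05 for both treatments together and Atr and Atrip not. Topbp1 (chr9:103305215-103350428), which activates the ATR kinase, was the most abundant of the 4, at 138, 70.0 and 140 CPM in saline tumors, 42.7, 47.1 and 69.0 CPM after i.v. TLZ and 73.4, 52.5 and 61.9 CPM after NanoTLZ. Its i.v. TLZ tumors lay below saline, B3700 by a small margin, and C3519 of the NanoTLZ group was above A3685. Topbp1 differed by −1.13 ± 0.33 (adjusted p = 0.417) and −0.89 ± 0.33 (adjusted p = 0.552). Chek1 (chr9:36708482-36727065), the kinase downstream of ATR, was at 15.4, 4.48 and 93.0 CPM in saline tumors, 3.53, 4.26 and 13.4 CPM after i.v. TLZ and 8.32, 4.53 and 13.3 CPM after NanoTLZ. A3688 held most of the saline mean. Chek1 had the largest difference of any member, −2.42 ± 0.99 (adjusted p = 0.452) for i.v. TLZ and −2.11 ± 0.98 (adjusted p = 0.563) for NanoTLZ, and without A3688 the differences were −0.48 and −0.15.

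Chek2 (chr5:110839979-110874145), the kinase downstream of ATM, was at 13.2, 15.8 and 47.5 CPM in saline tumors, 8.86, 9.28 and 14.9 CPM after i.v. TLZ and 10.1, 9.22 and 11.9 CPM after NanoTLZ. The NanoTLZ tumors lay below saline, and the i.v. group overlapped it through B3700. Chek2 differed by −1.21 ± 0.50 (adjusted p = 0.455) and −1.30 ± 0.50 (adjusted p = 0.552), and by −0.39 and −0.45 without A3688. Atm (chr9:53439149-53536740), the kinase that responds to broken ends, was at 32.1, 12.6 and 51.7 CPM in saline tumors, 10.7, 11.7 and 26.8 CPM after i.v. TLZ and 17.6, 12.2 and 16.9 CPM after NanoTLZ. A3685 lay inside both treated ranges. Atm differed by −0.97 ± 0.53 (adjusted p = 0.538) and −1.05 ± 0.53 (adjusted p = 0.573), and by −1.01 ± 0.44 (adjusted p = 0.370) for both treatments together, and the 3 values were −0.43, −0.49 and −0.46 without A3688. Atr (chr9:95857597-95951781), the kinase that responds to single-stranded DNA at forks, was at 25.4, 9.81 and 20.9 CPM in saline tumors, 12.6, 13.5 and 22.8 CPM after i.v. TLZ and 14.0, 14.3 and 10.5 CPM after NanoTLZ. The 3 groups overlapped. Atr differed by −0.36 ± 0.35 (adjusted p = 0.674) for both treatments together, or −0.05 without A3673 and −0.67 without A3685, and its partner Atrip by 0.10 ± 0.32 (adjusted p = 0.917).

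The delivery forms were compared directly, because the study set the nanoparticle beside free drug. No member was at an unadjusted p under 0.05 between NanoTLZ and i.v. TLZ (0 of 41, where 1.23% of all genes were lower and 0.449% higher), the median log2 difference was 0.01, and the smallest p belonged to Fance (−0.65 ± 0.38, 95% interval −1.49 to 0.19). The treated groups overlapped for all 41 members, while 4.39% of all genes were lower and 3.21% higher without overlap. These intervals do not show that the forms act alike: for 29 of 41 members the 95% interval reached a log2 difference of 1 or −1, and for 12 it lay between them. The interval ran from −0.79 to 0.81 for Rad50, from −1.03 to 1.40 for Fancd2, from −0.88 to 1.06 for Brca1 and from −1.80 to 2.41 for Chek1. The comparisons of the 2 forms with saline share the saline tumors. In these, 11 members were at an unadjusted p under 0.05 after both (Bard1, Rad50, Exo1, Rad51b, Rad54l, Fancl, Fancd2, Fanci, Blm, Topbp1 and Chek2) and 8 after i.v. TLZ alone (Brca1, Palb2, Mre11a, Rad54b, Fancm, Brip1, Eme1 and Chek1), whose difference between the forms was not at p under 0.05 for any of the 8. The share of all genes at that level after both was not counted, so the 11 and 8 are not read as particular to the members.

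Other genes of the pathway, listed apart from the members, had smaller differences on average. Of 44 tested, 12 were lower at an unadjusted p under 0.05 for both treatments together, against 8.29% of all genes. Higher was 1 of 44, a smaller share than the 4.80% of all genes, and the median of the list was −0.46. The lowest p-values belonged to Rpa3, Etaa1, Rad51ap1 and Clspn. Etaa1, an activator of ATR, was at 25.5, 12.7 and 60.1 CPM in saline tumors and at 6.20 to 15.8 CPM in treated tumors, a difference of −1.85 ± 0.45 (adjusted p = 0.272). The recombinase cofactor Rad51ap1 was at 10.5, 13.9 and 46.2 CPM in saline tumors and 4.70 to 9.91 CPM in treated tumors (−1.80 ± 0.45, adjusted p = 0.277), and Clspn, the adaptor for CHEK1, was at 32.2, 26.8 and 33.2 CPM against 8.62 to 21.4 CPM (−1.20 ± 0.32, adjusted p = 0.279). Without A3688 the differences of Etaa1 and Rad51ap1 were −1.04 and −0.83. For Rad51ap1 and Clspn no treated tumor reached the saline range, and for Etaa1 B3700 did. The gene that was higher was Ercc1, a subunit of a structure-specific nuclease, at 22.7 to 37.8 CPM in saline tumors and 35.5 to 107 CPM in treated tumors (0.92 ± 0.39, adjusted p = 0.363). Rpa3, a subunit of the single-strand binding protein RPA, was at 992 CPM in A3673 and at 8.22 to 46.2 CPM in the other 8 tumors, a difference of −4.28 ± 0.91 (adjusted p = 0.238) with A3673 far above the rest, and of −1.18 without A3673. B3638 at 38.4 CPM lay just below the lowest saline tumor at 38.8 CPM. Beside it on the chromosome, Mios was at 1404 CPM in A3673 against 11.5 to 37.4 CPM elsewhere, and 6 of 12 tested genes within 2 Mb were over 3-fold higher in A3673.

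The members were then set against proliferation genes, since recombination is used in cycling cells. All 40 genes of an S phase and mitosis list were below zero in the comparison of both treatments with saline, 30 of them at an unadjusted p under 0.05, with a median of −1.06. Mki67, a mark of cycling cells, was at 286, 101 and 937 CPM in saline tumors and at 54.3 to 160 CPM in treated tumors (−2.17 ± 0.56, adjusted p = 0.277). The helicase subunit Mcm2 differed by −1.10 ± 0.29 (adjusted p = 0.277), the topoisomerase Top2a by −1.55 ± 0.24 (adjusted p = 0.0915), and the sliding clamp Pcna by −0.25 ± 0.23 (adjusted p = 0.656). Without A3688 the differences of Mki67, Mcm2 and Pcna were −0.96, −0.68 and −0.07. Tumor by tumor, the mean log2 CPM of the 41 members ran from 3.24 in B3638 to 4.58 in A3688, and that of the 40 proliferation genes from 4.33 to 6.44 in the same tumors. The saline tumor with the lowest members, A3685, was also the saline tumor with the lowest proliferation genes.

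**Figure D5:**
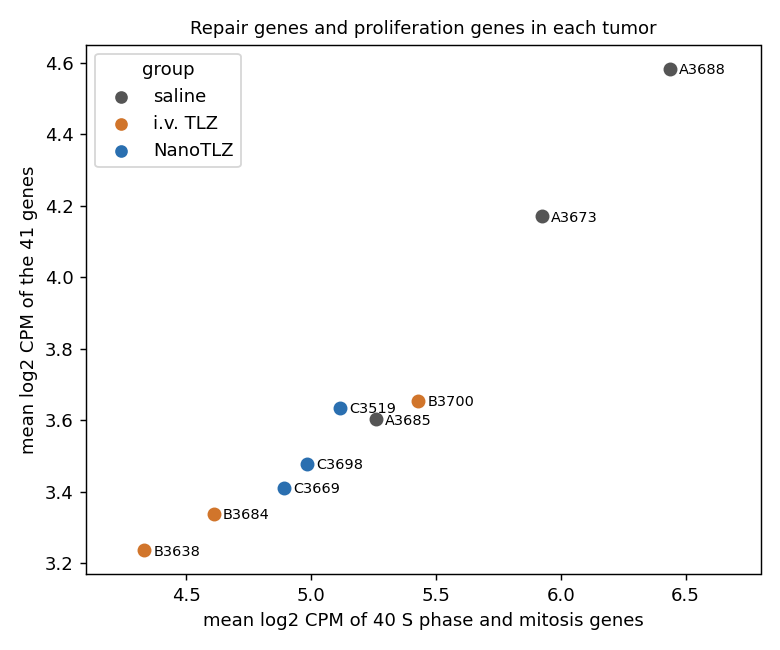
Mean log2 CPM of the 41 recombination and Fanconi anemia genes (vertical axis) against that of 40 S phase and mitosis genes (horizontal axis), one point per tumor, colored by group. A3688 (4.58 and 6.44) and A3673 (4.17 and 5.93) lie at the upper right, while saline tumor A3685 (3.60 and 5.26) lies among the treated tumors.

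Each member was also expressed relative to the mean of the proliferation genes in the same tumor, as a description without a test. On this scale the median member differed by 0.24 after i.v. TLZ and by 0.15 after NanoTLZ, and 27 and 28 of 41 were above zero, where the plain log2 medians were −0.84 and −0.73. Over all genes the relative medians were 1.09 and 0.86, so the members stood between the typical gene and the proliferation genes. Fancd2, Fanci, Chek1 and Brip1 differed by −0.62, −0.47, −0.45 and −0.44 relative to proliferation genes for both treatments together. Brca1 differed by −0.05, Chek2 by −0.04 and Topbp1 by 0.02. The Chek1 and Fancd2 values rested on A3688. Chek1 was at −1.97, −3.07 and 0.10 in saline tumors on this scale, and at −2.68 to −1.24 in treated tumors. Fancd2 was at −2.08, −2.04 and −0.98 against −2.82 to −1.97, and Chek2 at −2.19, −1.27 and −0.86 against −1.77 to −1.17. Relative differences were not recomputed without A3688. Exo1 was the 1 member whose treated tumors all lay below all saline tumors on the relative scale. Over all genes that share was 0.126%. In the upward direction 4 of 41 members did not overlap (Fancc, Xrcc3, Atrip and Uimc1, at 1.34, 1.09, 1.09 and 1.08), a smaller share than the 17.5% of all genes; this scale subtracts a list that was itself lower after treatment.

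Markers of other cell types also differed between the groups, and their part in the members' differences was not tested. Of 10 tested skeletal muscle genes, all 10 were below zero after treatment and 7 were lower at an unadjusted p under 0.05; the summed level of the list was 34.0 to 561 CPM in saline tumors, 7.59 to 43.6 CPM after i.v. TLZ and 16.2 to 26.7 CPM after NanoTLZ. Tumor A3688 had the highest muscle level, and the most abundant muscle gene, Acta1, was at 230 CPM there and at 0 to 0.465 CPM in treated tumors. Immune markers (9 tested) summed to 163 to 601 CPM in saline tumors, 238 to 609 CPM after i.v. TLZ and 545 to 776 CPM after NanoTLZ. Endothelial markers (8 tested) summed to 100 to 250.7, 133 to 358 and 267 to 340 CPM in the same order. Fibroblast markers (10 tested) summed to 1728 to 2512, 1180 to 6480 and 2241 to 3836 CPM, and epithelial markers (12 tested) to 6285 to 10472, 7532 to 9565 and 4926 to 7236 CPM. A3688 had the lowest immune and endothelial levels of the 9 tumors.

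The members with lower levels lay on several chromosomes and were found both with and without each promoter word. Chromosome 11 held 7 members, 5 of them at an unadjusted p under 0.05 for both treatments together, and chromosome 9 held 6, with 4. Chromosomes 8 and 13 held 2 members each, and chromosomes 16, 17, 18, 19 and X held 1 each, none of them lower at that level. Of the 4 members with an E2F word, Bard1 and Chek2 were among those 20 and Brca2 (−1.13 ± 0.54, adjusted p = 0.402, or −0.11 without A3688) and Fancg (−0.16 ± 0.29, adjusted p = 0.839) were not. Of the 20 with a CCAAT box 9 were lower, and of the 13 matched members without one 7 were lower, with medians of −0.71 and −1.01. For the CHR words, 1 of 3 members with a word and 15 of 30 matched members without one were lower, with medians of −0.36 and −0.92. Members without a promoter entry, Fancd2 and Exo1 among them, are outside these counts. Across groups the order of levels per exon length was led by Babam1, Fance and Nbn after both treatments and by Babam1, Mre11a and Topbp1 in saline tumors. The place of Mre11a in saline came from A3673, without which it stood 14th at 4.81 CPM per kilobase. Fancd2 stood 21st of 41 in saline tumors at 2.83 ± 2.36 CPM per kilobase (SD, n = 3) and 37th after i.v. TLZ (0.698) and after NanoTLZ (0.794). Without A3688 its saline level was 1.48 CPM per kilobase and its place 31st. Exons of 19 members overlap a gene on the opposite strand, and for 7 of them the other gene has at least as many counts (Xrcc3, Rad54l, Fanca, Fancc, Fanci, Mus81 and Eme1), so the levels of these 7 are less certain.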

How the data were processed

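Total RNA from flash-frozen mammary tumors was sequenced on an Illumina platform. The authors deposited 1 table of raw counts per Ensembl gene. The submitters' processing notes name TopHat2, DESeq2 and mm10; the counting program, annotation and strand setting are not given in the sources used here. No column was left out.

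Symbols were matched through gene identifiers (34490 of 35275). Positions and exon lengths came from the GENCODE annotation of GRCm38, and promoters from RefSeq GRCm38.p6. The count test was edgeR 4.0.16 (R 4.3.3): filterByExpr (minimum count 10, minimum total 15), TMM, and glmQLFit and glmQLFTest with 1 coefficient per group over all 9 tumors, with Benjamini-Hochberg adjustment over 15821 genes. SE is the log2 fold change divided by the square root of F; CPM and CPM per kilobase of exon describe levels. Fold changes from counts are relative to the TMM-scaled total. The test was checked on simulated counts in which no single tumor was set apart. That check does not cover results that rest on A3688 or A3673. Python 3.11.15 was used for summaries.

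Values in every tumor are given for Brca1, Bard1, Brca2, Palb2, Fancd2, Fanci, Chek1, Chek2, Atm, Atr and each member with an unadjusted p under 0.05 in any comparison. Of the other pathway genes up to 4 with the smallest p in each direction are named, and of the proliferation genes Mki67, Top2a, Pcna and Mcm2. Krt5, Mios and the neighborhoods of Mre11a and Rpa3 were chosen after their values were seen. The members and lists were chosen with earlier results of these data known.

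Alternatives were DESeq2 1.42.0 and edgeR on all tumors or only the groups compared, RLE and upper quartile scaling, no filter, at least 10 counts in every tumor, limma-voom 3.58.1, leaving out each tumor and, added after seeing the data, library size alone.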

Additional observations from a re-analysis of the deposited data

How the results depend on the processing

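The direction of the members against saline did not depend on the tool or scaling. Over the 9 alternatives that kept all tumors, the median log2 fold change ran from −0.98 to −0.86 for i.v. TLZ, −0.83 to −0.73 for NanoTLZ and −0.88 to −0.77 for both together. The number of members called by adjusted p was 2 with DESeq2 on all 9 tumors for i.v. TLZ (Fancd2, −2.02, adjusted p = 0.0389; Brip1, −1.98, adjusted p = 0.0491) and 2 with either DESeq2 fit for both treatments together (Fancd2, −1.92, adjusted p = 0.0121; Fanci, −1.52, adjusted p = 0.0333), and 0 in all edgeR and limma fits. Of the genes with an adjusted p, DESeq2 called 1.10% and 1.56% in these comparisons. Fitting only the groups compared in edgeR left 11 members lower at an unadjusted p under 0.05 for i.v. TLZ, in place of 19. The share of all genes lower in that fit is not given here. DESeq2 on the groups compared put 1 member, Mre11a, higher after NanoTLZ than after i.v. TLZ at that level, where 1.14% of all genes were higher. The cause of these changes was not tested.

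Leaving out single tumors moved the counts more. The members lower at an unadjusted p under 0.05 numbered 7 to 19 for i.v. TLZ, 2 to 18 for NanoTLZ and 9 to 23 for both together; those higher numbered 0, 0 to 1 and 0 to 1 (Uimc1, without A3688), and 0 to 1 between NanoTLZ and i.v. TLZ (without B3700). For i.v. TLZ, counts moved by over 1.5 times without A3673 (11), A3688 (8), B3638 (7) or B3684 (10). For NanoTLZ they did so without A3685 (18), A3688 (2), C3519 (7), C3669 (2) or C3698 (4), and for both together without A3688 (9). The share of all genes lower moved too, for NanoTLZ from 3.26% without A3688 to 8.66% without A3685. Shares without single treated tumors are not given here, so those counts have no background beside them. The medians ran from −1.10 to −0.43, −1.08 to −0.42 and −1.04 to −0.43, each highest without A3688, and from −0.06 to 0.21 between the forms. The difference of Mre11a for both treatments together was 0.00196 without A3673, −2.24 without A3685 and −1.76 with all tumors. Of 1580 values for the 22 named genes, 6 passed the adjusted threshold under DESeq2, 1 turned (Mre11a) and 1573 stayed on their side of it. None of these genes passed it in the main fit, so this count says little about how stable a difference was. Chek1, for example, moved from −2.42 to −0.48 for i.v. TLZ without A3688. Among differences not under 0.05 unadjusted, the sign changed for Atr (1 of 395 values, i.v. TLZ), Mre11a (1, NanoTLZ) and 14 genes between the forms (35 of 395).

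No paired analysis was possible because the labels give the tumors no replicate numbers that are shared between groups. The common biological coefficient of variation was 49.8%, and the member with the fewest counts, Rad51b, had 9 to 69 per tumor.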

Other observations

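Markers of immune and endothelial cells were higher on average after NanoTLZ than after i.v. TLZ, without a call for any gene. Of the immune markers, 9 of 9 tested were above zero, with a median log2 difference of 0.70, and of the endothelial markers 8 of 8 were above zero, with a median of 0.59. None of these genes was at an unadjusted p under 0.05 in edgeR, and the summed levels of the 2 groups overlapped. Epithelial markers went the other way, with 11 of 12 below zero and a median of −0.42. Of these, 1 was lower at an unadjusted p under 0.05, where 1.23% of all genes were lower. Over all genes tested 54.4% were below zero between the forms.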
